A study of Bos taurus with 13 samples.

Results

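Extracellular vesicles (EVs) of bovine follicular fluid carried all 6 miRNAs of a set best known from white blood cells, namely bta-miR-223, bta-miR-142-5p, bta-miR-142-3p, bta-miR-150, bta-miR-155 and bta-miR-146a. The 6 were picked by miRNA name, with earlier results of these data known, and each was read in all 13 pools, out of 311 miRNAs listed in any group and 262 listed in every group. Their levels were lowest in the ANCs and highest in the heifers for 5 of the 6, and miR-142-3p, at 2 to 13 reads per pool, did not follow that order. In ANCs against heifers, all 5 members that could be tested were downregulated, in a comparison where 19.1% of all miRNAs were called and 12.6% were called lower, miRNAs of red blood cells, epithelia and liver among them. Without the first ANC pool, which left 1 pool in that group, bta-miR-155 and bta-miR-146a lost their calls.

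The pools came from Holstein Friesian cattle in 5 groups, and the comparisons ask how EV-coupled miRNAs go with postpartum energy balance and with lactation. The heifers (3 pools, 8 animals) had not calved and were in positive energy balance. The transiently negative cows (TCs) were in negative balance at weeks 5 to 6 post-calving (3 pools, 11 cows) and in positive balance at weeks 9 to 10 (3 pools, 7 cows). The always negative cows (ANCs) and the always positive cows (APCs) were both taken at weeks 5 to 6, with 2 pools from 2 cows in each group. All fluid was aspirated by ovum pick-up from large follicles, freed of cells and larger particles by centrifugation, and ultracentrifuged to pellet the EVs. Every cow group therefore differed from the heifers in calving and lactation, the ANCs and the TCs at weeks 5 to 6 differed in energy balance as well, and the ANC and APC values rest on 2 animals each. The study calls the pools biological replicates, without saying how animals were divided among them, so the p-values measure the spread between pools. Nor does it say whether the same TCs gave fluid at both times, so TC pools of the earlier and later weeks may not be independent.

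MiRNAs are short RNAs that pair with messenger RNAs and repress them, and EVs are membrane particles that carry them between cells. MiR-223 is a myeloid miRNA of neutrophils and monocytes, and the locus of miR-142 is active across blood cells and gives rise to both a 5p and a 3p arm. MiR-150 is abundant in mature lymphocytes, miR-155 is induced when lymphocytes and macrophages are activated, and miR-146a is induced by NF-κB signaling and dampens it. MiR-155 and miR-146a are also made outside the blood lineage, and the granulosa cells that line a follicle are among the many cell types that release EVs. RNA of a pool cannot tell apart fewer EVs from a cell type and less of a miRNA in each EV, nor which cell released it.

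In the RefSeq gene table of assembly ARS-UCD2.0, which is not the build the study mapped to, MIR223 lies within VSIG4, a gene of a macrophage complement receptor, and MIR142 lies within TSPOAP1. Each also lies within a long noncoding RNA gene. MIR150, MIR155 and MIR146A lie within no other gene of that table. The 5 genes matched the 6 mature miRNAs by name, since both arms of miR-142 come from 1 hairpin.

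Levels are given in CPM, the reads of a miRNA per fixed total of reads, and were computed from the whole reads behind the deposited values. All 13 pools were scaled together by TMM (trimmed mean of M-values). The libraries held 145030 to 421435 miRNA reads with a median of 327359, so that 3 reads stood at 7.9 to 19.0 CPM. Together the 6 miRNAs took 0.641% of the reads in the richest heifer pool and 0.0846% in the poorest ANC pool. The summed level was 4799, 5744 and 5663 CPM in the heifers. It was 2693, 2720 and 3013 CPM in TCs at weeks 5 to 6, and 2152, 4659 and 1606 CPM at weeks 9 to 10. The ANC pools held 707.5 and 1721 CPM and the APC pools 2329 and 3972 CPM. Every cow pool lay under every heifer pool in this sum, and both ANC pools lay under all APC pools and all TC pools at weeks 5 to 6.

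**Figure D1:**
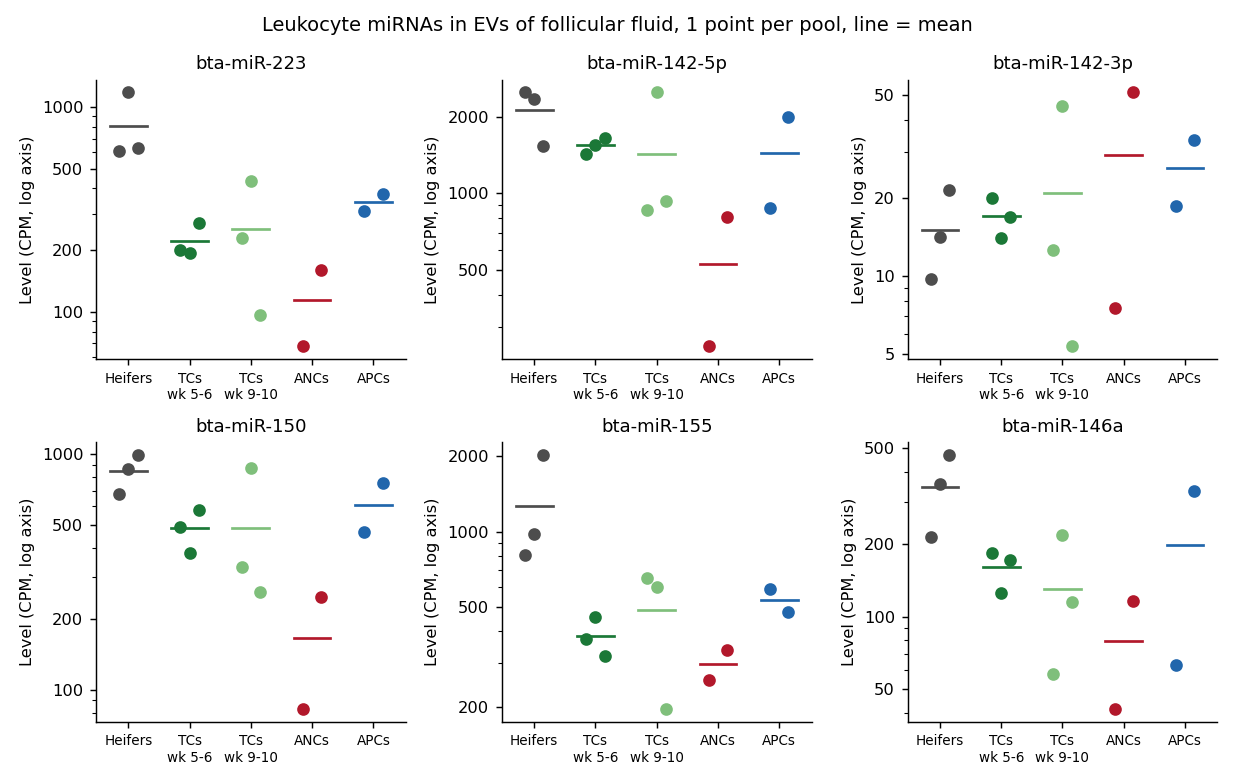
Level in CPM (log axis) of each leukocyte miRNA in each of the 13 pools, by group, with 1 point per pool and a line at the group mean. For bta-miR-223 and bta-miR-155 all 10 cow pools sit under the lowest heifer pool, whereas the points of bta-miR-142-3p, drawn from 2 to 13 reads, are mixed across groups.

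The myeloid bta-miR-223 was measured at 609.0, 1178 and 627.1 CPM in the heifer pools. TCs had 200.5, 193.1 and 270.2 CPM at weeks 5 to 6 and 228.7, 433.3 and 96.5 CPM at weeks 9 to 10. ANCs had 67.7 and 160.5 CPM, and APCs had 309.3 and 377.5 CPM. The heifers stood above all other pools, the APCs stood above the TCs at weeks 5 to 6, and the TCs at the later time overlapped with both the ANCs and the earlier TCs. Between its lowest and its highest pool bta-miR-223 differed 17.4-fold, the widest range of the 6.

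The pan-hematopoietic bta-miR-142-5p was the most abundant member in 11 of the 13 pools. It reached 2485, 2348 and 1530 CPM in the heifers. In TCs it was 1423, 1550 and 1655 CPM at weeks 5 to 6 and 864.7, 2486 and 932.8 CPM at weeks 9 to 10. ANCs had 252.1 and 809.6 CPM and APCs 879.5 and 1998 CPM. Both ANC pools lay below every other pool, and each of the other groups overlapped with the heifers.

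The other arm of the same hairpin, bta-miR-142-3p, gave 2, 6 and 8 reads in the heifers, which is 9.74, 14.2 and 21.4 CPM. It gave 6, 5 and 5 reads in TCs at weeks 5 to 6, 5, 13 and 2 at weeks 9 to 10, 2 and 7 in ANCs, and 5 and 10 in APCs. No group stood apart from the heifers. The 3p arm made up 0.391% to 1.38% of the miR-142 reads in the heifers, 0.895% to 1.39% in TCs at weeks 5 to 6, and 0.571% to 1.78% at weeks 9 to 10. It made up 1.65% and 2.08% in APCs, and 2.90% (exact 95% interval 0.353% to 10.1%) and 5.93% (2.42% to 11.8%) in ANCs. The ANC shares were the highest of the 13, with the poorest counts behind them: the interval of the first spans the shares of all other pools, and the intervals cover counting error only.

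**Figure D2:**
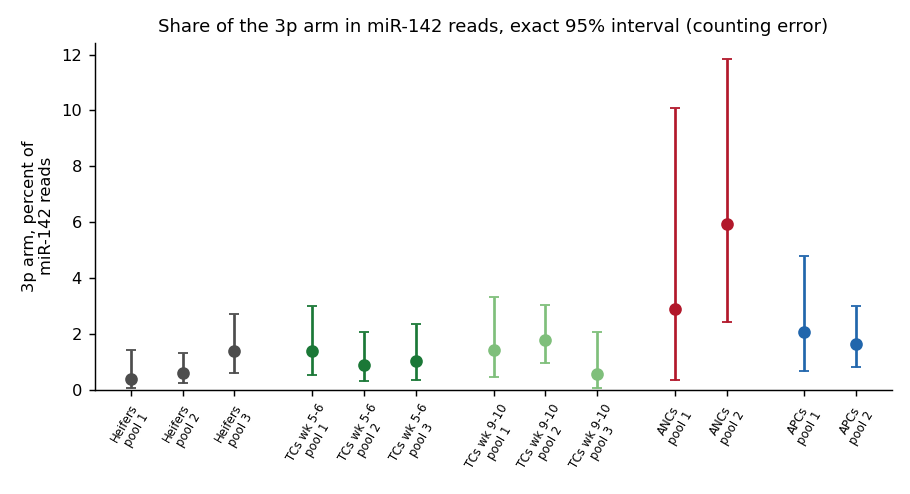
Share of the 3p arm in the miR-142 reads (percent) of each of the 13 pools, with the exact 95% binomial interval for counting error. The shares lie between 0.391% and 2.08% outside the ANCs, and the 2 ANC pools, at 2.90% and 5.93%, have the widest intervals.

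The lymphocyte miRNA bta-miR-150 was found at 677.2, 866.1 and 991.5 CPM in the heifers. TCs had 491.2, 380.6 and 581.0 CPM at weeks 5 to 6 and 331.8, 873.6 and 260.0 CPM at weeks 9 to 10. ANCs had 82.8 and 248.0 CPM, and APCs had 465.8 and 751.6 CPM. Of the 10 cow pools, 8 were under the lowest heifer pool, and the 2 exceptions were the second pool of TCs at weeks 9 to 10 and the second APC pool. Both ANC pools were below all other pools.

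The activation-induced bta-miR-155 stood at 803.9, 981.8 and 2023 CPM in the heifers. TCs had 374.2, 456.1 and 317.5 CPM at weeks 5 to 6 and 656.1, 603.2 and 195.7 CPM at weeks 9 to 10. ANCs had 255.9 and 335.5 CPM and APCs 592.5 and 477.7 CPM. All 10 cow pools lay below all 3 heifer pools, and here the lowest pool was a TC pool of weeks 9 to 10, not an ANC pool.

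The feedback inhibitor bta-miR-146a had the lowest median level of the 6 after miR-142-3p. It stood at 214.4, 356.4 and 469.0 CPM in the heifers. TCs had 183.8, 125.9 and 172.3 CPM at weeks 5 to 6 and 57.8, 218.4 and 115.3 CPM at weeks 9 to 10. ANCs had 41.4 and 116.7 CPM. The 2 APC pools were far apart, at 63.4 and 334.1 CPM, so that the group spanned almost the whole range of the cows. In all, 8 of 10 cow pools were below the lowest heifer pool.

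The members were tested with limma on log2(CPM + 5), in which the pools of the 2 groups were scaled together. A miRNA was called where its log2 fold change was 1 or more in size, with p under 0.05 and no more than 0.25 after adjustment over all tested miRNAs, which are the thresholds of the study. In the pairwise fits with all pools of the 2 groups, bta-miR-142-3p did not pass the filter on low reads, so 5 of the 6 were tested there. The 4 comparisons with heifers share the same 3 heifer pools.

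In ANCs against heifers all 5 tested members were downregulated. Of all 215 miRNAs tested, 19.1% were called and 12.6% were called lower. Bta-miR-223 fell by 2.81 on the log2 scale (SE 0.49, limma adjusted p = 0.0454) and had the lowest p-value of all miRNAs tested. Bta-miR-150 fell by 2.49 (SE 0.48, limma adjusted p = 0.0456) and was second. Bta-miR-142-5p fell by 2.17 (SE 0.50), bta-miR-146a fell by 2.15 (SE 0.52) and bta-miR-155 fell by 1.97 (SE 0.46), each with a limma adjusted p of 0.0468. The ANC and heifer pools did not overlap for any of the 5, against 25.6% of all miRNAs tested that were lower without overlap, and the median log2 fold change was -2.17 for the 5 and -0.01 for all. Without the first ANC pool, the poorest in these miRNAs, 3 of the 5 calls were made, with 6.33% of all miRNAs called, since bta-miR-155 (log2 fold change -1.84) and bta-miR-146a (-1.51) had a limma adjusted p of 0.277.

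In TCs at weeks 5 to 6 against heifers, bta-miR-223 and bta-miR-155 were downregulated, 2 of the 5 members tested. Of all 230 miRNAs tested, 6.52% were called and 3.91% were called lower. Bta-miR-223 fell by 1.76 (SE 0.36, limma adjusted p = 0.149) and bta-miR-155 fell by 1.59 (SE 0.39, limma adjusted p = 0.218). The log2 fold changes of bta-miR-146a (-1.01, limma adjusted p = 0.255), bta-miR-150 (-0.78, limma adjusted p = 0.255) and bta-miR-142-5p (-0.40, limma adjusted p = 0.448) were not called. The TC pools of the first 2 still lay below the heifer pools without overlap, like those of bta-miR-223 and bta-miR-155. Of all miRNAs tested, 13.5% were lower without overlap. Same-numbered pools of these groups correlated in their deviations from group means (r = 0.189, 0.373 and 0.372). Whether this is pairing was not tested. With the replicate number as a block bta-miR-146a was called as well (limma adjusted p = 0.122), with 14.8% of all miRNAs called. It was also called with edgeR, DESeq2, total reads in place of TMM and the deposited scaling, at log2 fold changes from -1.25 to -1.04. Of all miRNAs, 8.7%, 15.7%, 11.3% and 8.7% were called in these 4 settings in turn, against 6.52% in the main fit. A further fit had a covariate named the day of RNA measurement, coded from the replicate number alone. It set the first pool of each group against the others, so it cannot be told apart from anything else those pools share. In that fit no miRNA was called, and bta-miR-223 had a limma adjusted p of 0.322. No miRNA was called either when the first or the third TC pool, or the first or the second heifer pool, was left out, while the log2 fold change of bta-miR-223 then lay between -1.91 and -1.44.

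In TCs at weeks 9 to 10 against heifers none of the 227 miRNAs tested was called by limma (0%), with 23 at an unadjusted p under 0.05 that include bta-miR-223, bta-miR-155 and bta-miR-146a. The log2 fold changes were -1.84 for bta-miR-223 (SE 0.55, limma adjusted p = 0.344), -1.51 for bta-miR-146a and -1.46 for bta-miR-155 (limma adjusted p = 0.349 for both). They were -0.99 for bta-miR-150 and -0.73 for bta-miR-142-5p. The result rested on the second TC pool, which stood highest of the 3 for all members except bta-miR-155. Without it all 5 were called, with log2 fold changes from -2.33 to -1.21, and so were 9.96% of all miRNAs. DESeq2 on the recovered reads called 3 of the 5 with all pools (6.17% of all miRNAs), and edgeR called 0. The TC pools of bta-miR-223 and bta-miR-155 lay below the heifer pools without overlap, as for 7.05% of all miRNAs tested.

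In APCs against heifers none of the 5 members was called, in a comparison where 12.4% of 233 miRNAs were called, most of them higher in the APCs, and 3% were called lower. The log2 fold change was -1.09 for bta-miR-223 (SE 0.44, limma adjusted p = 0.281), -1.08 for bta-miR-146a (SE 0.72) and -1.07 for bta-miR-155 (SE 0.49). It was -0.58 for bta-miR-142-5p and -0.43 for bta-miR-150. The APC pools of bta-miR-223 and bta-miR-155 lay below the heifer pools without overlap, as for 15.9% of all miRNAs tested. DESeq2 called bta-miR-223 and bta-miR-155, with 14.2% of all miRNAs called. With total reads in place of TMM all 5 were called, as were 27% of all miRNAs, but the median of all miRNAs then shifted to -0.54, and relative to that shift bta-miR-223 was at -1.14 and bta-miR-150 at -0.48. Without the second APC pool bta-miR-142-5p and bta-miR-146a were called (19.3% of all miRNAs), and without the third heifer pool bta-miR-223 was (20.4%).

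**Figure D3:**
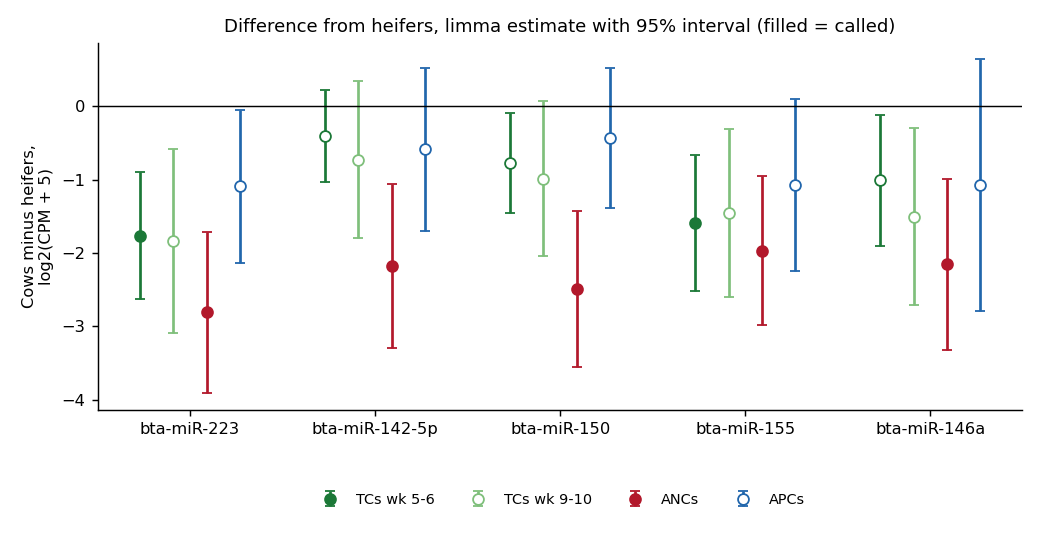
Log2 fold change on the log2(CPM + 5) scale of the 5 tested leukocyte miRNAs in each cow group against heifers, as limma estimates with 95% intervals, where filled points were called. All 20 estimates are below 0, those of the ANCs are the lowest for each miRNA, and 7 are filled.

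All 4 cow groups against the heifers, in 1 fit of the 13 pools, gave 4 calls among the 6, all lower, where 7.29% of 247 miRNAs were called and 5.26% were called lower. Bta-miR-223 fell by 1.89 (SE 0.42) and bta-miR-155 by 1.54 (SE 0.38), with a limma adjusted p of 0.0898 for both, the first with the lowest p-value of all miRNAs tested. Bta-miR-146a fell by 1.46 (SE 0.52, limma adjusted p = 0.165) and bta-miR-150 by 1.19 (SE 0.40, limma adjusted p = 0.157). Bta-miR-142-5p, at a log2 fold change of -0.99, was just within the fold threshold and not called, and it was called in 10 of 21 alternatives, 6 of which left out a pool. Bta-miR-142-3p was at 0.33 (SE 0.52, 95% interval -0.80 to 1.46). In a two-sided exact permutation test of the 10 cow pools against the 3 heifer pools, bta-miR-223 and bta-miR-155 reached p = 0.003497, the smallest that the 286 splits allow. The test takes the pools as exchangeable, although earlier and later TC pools may share cows. The exact permutation p was 0.0315 for bta-miR-146a, 0.0769 for bta-miR-150, 0.136 for bta-miR-142-5p and 0.584 for bta-miR-142-3p. Without the second heifer pool no miRNA was called, and without the first only bta-miR-223 and bta-miR-155 were (0.81% of all miRNAs). Without the third, bta-miR-150 and bta-miR-146a lost their calls, with 12.7% of all miRNAs called. All pools of bta-miR-223 and bta-miR-155 were lower without overlap, as for 2.43% of all miRNAs tested.

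The comparison of ANCs with APCs sets cows of unlike energy balance side by side at the same weeks post-calving. All 5 tested members had a lower level in the ANCs, and none was called. None of the 207 miRNAs tested was called by limma (0%), with 16 at an unadjusted p under 0.05, while edgeR called 0 and DESeq2 called 6, no member among them. The log2 fold change was -1.94 for bta-miR-150 (95% interval -3.52 to -0.36) and -1.60 for bta-miR-223 (-2.97 to -0.23), both with a limma adjusted p of 0.534. It was -1.48 for bta-miR-142-5p, -0.96 for bta-miR-146a and -0.79 for bta-miR-155. The ANC pools of 4 of the 5, all but bta-miR-146a, lay below the APC pools without overlap, as for 20.3% of all miRNAs tested. Without the second ANC pool 3 of the members were called (9.24% of all miRNAs), and without the first APC pool 4 were (10.9%), bta-miR-150, bta-miR-223 and bta-miR-142-5p each time.

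Against TCs at weeks 5 to 6, which were also in negative balance, the ANCs had a lower mean level of all 5 members, and none of 225 miRNAs was called by limma (0%), with 18 at an unadjusted p under 0.05 and 0 calls by edgeR or DESeq2. Bta-miR-142-5p, at a log2 fold change of -1.79 (95% interval -2.98 to -0.61), had the lowest p-value of all miRNAs tested, and bta-miR-150 was at -1.73 (-2.96 to -0.50), both with a limma adjusted p of 0.402. Bta-miR-146a was at -1.16, bta-miR-223 at -1.06 and bta-miR-155 at -0.40. For all but bta-miR-155 the ANC pools lay below the TC pools without overlap, as for 15.1% of all miRNAs tested. Without the second ANC pool bta-miR-142-5p and bta-miR-150 were called, with 2.85% of all miRNAs.

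APCs against TCs at weeks 5 to 6 gave log2 fold changes from -0.35 (bta-miR-142-5p) to 0.50 (bta-miR-223), with 0 calls among 225 miRNAs by limma and 6 at an unadjusted p under 0.05. The 2 TC times differed by -0.40 (bta-miR-146a, 95% interval -1.57 to 0.77) to 0.24 (bta-miR-155, -0.91 to 1.38) as the later minus the earlier, with 0 calls among 224 and 13 at an unadjusted p under 0.05. DESeq2 called 1 and 8 miRNAs in these comparisons, none of them a member, and edgeR 0 in both. For bta-miR-223 the interval between the TC times ran from -1.20 to 1.25, so it does not show that the levels were alike. Cows that the TC times may share were not paired in that fit. Among the cow groups, negative minus positive energy gave -0.92 for bta-miR-150 (SE 0.39, limma adjusted p = 0.883). It gave -0.81 for bta-miR-223 and values from -0.63 to -0.06 for the other 4. This contrast set the mean of the ANCs and the earlier TCs against the mean of the APCs and the later TCs. In its TC part energy balance changed together with the weeks post-calving, so the contrast cannot separate them. The heifer pools were in the same fit and entered its scaling and its estimate of spread. None of the 6 was called by limma, edgeR or DESeq2, bta-miR-150 alone had an unadjusted limma p under 0.05, and 0.405% of all 247 miRNAs were called.

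**Figure D4:**
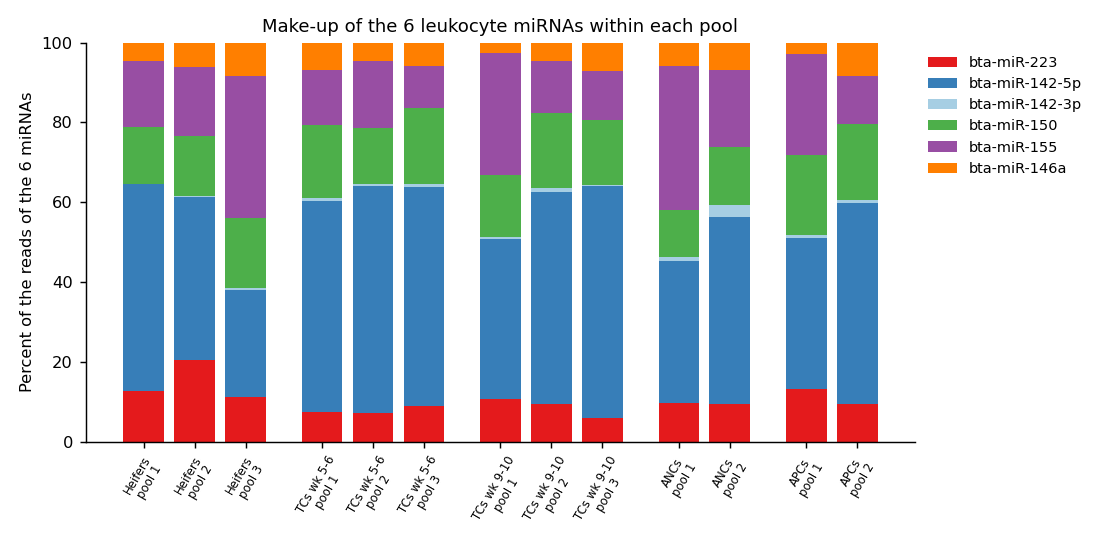
Percent of the reads of the 6 leukocyte miRNAs that each of them took in each of the 13 pools, as stacked bars. Bta-miR-142-5p takes 27.0% to 58.1%, and bta-miR-155, from 10.5% to 36.2%, takes the largest part in the third heifer pool and the first ANC pool.

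The make-up of the set within a pool does not depend on the scaling between pools. Bta-miR-142-5p took 27.0% to 58.1% of their reads, bta-miR-155 10.5% to 36.2%, bta-miR-150 11.7% to 20.0%, bta-miR-223 6.01% to 20.5% and bta-miR-146a 2.69% to 8.41%. The share of bta-miR-223 was 11.1% to 20.5% in the heifers and 7.10% to 8.97% in TCs at weeks 5 to 6, and those pools did not overlap. Across the 13 pools bta-miR-142-5p and bta-miR-150 had the highest correlation of all pairs (Pearson r = 0.923). After subtracting group means it was 0.835, and the highest was that of bta-miR-142-3p with bta-miR-150, at 0.972. Bta-miR-155 followed bta-miR-142-5p least among the 5 abundant members (r = 0.492, and 0.063 within groups). These correlations are descriptions over pools that share the heifer-to-cow difference and the scaling.

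Of the 241 other miRNAs that passed the filter over all pools, bta-miR-181a was most like the mean of the 6 (Pearson r = 0.832, Spearman rho = 0.802, and r = 0.695 within groups, over 13 pools). Bta-miR-127 (r = 0.789, rho = 0.665) and the epithelial bta-miR-205 (r = 0.76, rho = 0.654) came next. Bta-miR-181a, known from lymphocyte development, had a log2 fold change of -0.87 in ANCs against heifers (SE 0.37) and was not called, whereas bta-miR-205 was called at -2.16 (SE 0.58, limma adjusted p = 0.067).

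A list of 8 other miRNAs that immune cells use (bta-miR-146b, bta-miR-147, bta-miR-342, bta-miR-181a, bta-miR-181b, bta-miR-29a, bta-miR-21-5p and bta-miR-21-3p) was compared with heifers in the same fits. Of the 7 tested in ANCs against heifers, 1 was called, bta-miR-147 (fell by 2.16, SE 0.59, limma adjusted p = 0.0721), and the median log2 fold change was -0.64 where all miRNAs had -0.01. None was called against heifers in APCs (median 0.04), in TCs at weeks 5 to 6 (-0.06) or in TCs at weeks 9 to 10 (-0.59). Several of the 8 are also abundant in cells outside the blood.

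Red blood cell miRNAs were read beside the leukocyte set. The study had discarded follicular fluid samples with blood contamination. Bta-miR-451 was read at 365.4, 158.1 and 120.6 CPM in the heifers, 36.8, 53.2 and 141.9 CPM in TCs at weeks 5 to 6, and 130.7, 644.8 and 278.8 CPM at weeks 9 to 10. It was 0 and 36.5 CPM (0 and 5 reads) in the ANCs, and 834.8 and 143.6 CPM in the APCs. In ANCs against heifers bta-miR-451 fell by 3.86 (SE 0.85, limma adjusted p = 0.0468) and bta-miR-486 fell by 2.46 (SE 0.77, limma adjusted p = 0.105), so the erythroid miRNAs moved with the leukocyte set there. The summed level of the erythroid list (2 of 3 listed for all groups) was 1707 to 3903 CPM in heifers, 731.8 to 5492 in TCs at weeks 5 to 6, 2506 to 10600 at weeks 9 to 10, 124.2 to 1247 in ANCs and 2138 to 9704 in APCs.

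In TCs at weeks 5 to 6 the log2 fold changes of bta-miR-451 and bta-miR-486 against heifers were -1.45 and -0.54, neither of them called. In APCs and in TCs at weeks 9 to 10 the median of both was 0.95 and 0.78, with no call, while all 5 leukocyte members had values below 0. The TC pool at weeks 9 to 10 with the highest leukocyte sum, 4659 CPM, also had the highest erythroid sum of the 13, 10600 CPM. Other pools went the other way. The APC pool with the highest bta-miR-451 of the 13, 834.8 CPM, had a leukocyte sum of 2329 CPM. The other APC pool had 143.6 CPM and 3972 CPM. Of the later TCs, the third pool had more bta-miR-451 than the first (278.8 against 130.7 CPM) and a lower leukocyte sum (1606 against 2152 CPM). Against the mean of the 6 leukocyte members, bta-miR-451 ranked 24th in likeness (r = 0.553) and bta-miR-486 35th (r = 0.485). Among cows, bta-miR-451 was the 1 miRNA called for negative minus positive energy, a contrast that in TCs also sets earlier against later weeks. The part of blood in the differences of the leukocyte miRNAs was not tested.

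**Figure D5:**
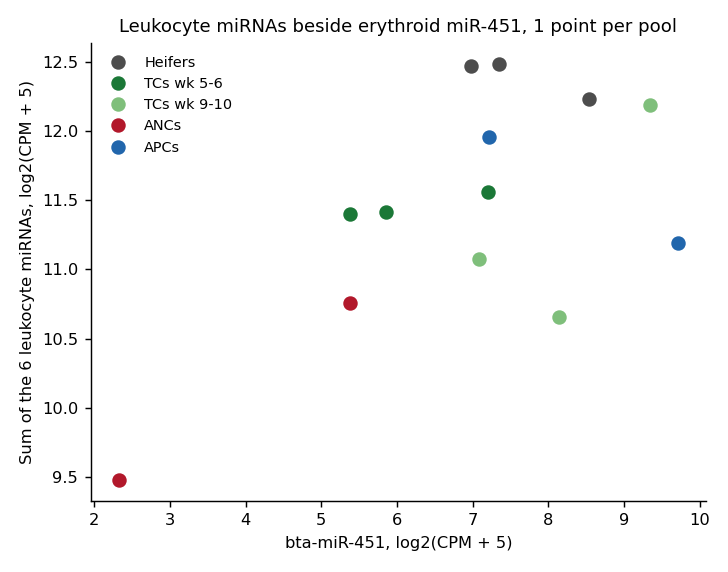
Summed level of the 6 leukocyte miRNAs against the level of erythroid bta-miR-451, both as log2(CPM + 5), with 1 point per pool. The ANC pool with 0 reads of bta-miR-451 has the lowest leukocyte sum, 707.5 CPM, and the heifer pools lie above all cow pools in leukocyte sum at 120.6 to 365.4 CPM of bta-miR-451.

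Markers of other tissues also differed in ANCs against heifers. The liver miRNA bta-miR-122 fell by 3.32 (SE 0.83, limma adjusted p = 0.0499), and 4 of 6 epithelial miRNAs were called lower. Of 3 muscle miRNAs 1 was called lower, and neither of 2 endothelial miRNAs was called. Of 6 miRNAs of gonad and follicle, 3 were called higher (bta-miR-424-5p, bta-miR-450b and bta-miR-542-5p). The rest of that list was not called, with bta-miR-503-5p at -1.09, bta-miR-202 at 0.76 and bta-miR-450a at 1.28. Of all 215 miRNAs tested in that comparison, 19.1% were called and 12.6% were called lower. The liver miRNA was also called lower in all cow groups against heifers (fell by 2.11, SE 0.69), as 1 of the 18 calls of that fit. The level of bta-miR-122 was 5338 to 17370 CPM in heifers, 4107 to 5619 in TCs at weeks 5 to 6, 2773 to 4273 at weeks 9 to 10, 312.3 to 3187 in ANCs and 685.7 to 5859 in APCs. The summed epithelial level was 14160 to 21010 CPM in heifers, 6076 to 30660 and 5822 to 17180 in TCs at the earlier and the later time, 4881 to 8957 in ANCs and 6231 to 30190 in APCs. The part of these lists in the values of the leukocyte miRNAs was not tested.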

How the data were processed

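Small RNA of follicular fluid EVs was sequenced from 13 pools. According to the study's methods and the submitters' processing notes, the authors used a QIAseq kit for the libraries, removed adaptors with cutadapt 1.11, aligned the reads to UMD3.1 with Bowtie2 2.2.2, annotated them against miRBase and normalized with TMM. The deposited values are TMM-normalized CPM per library. Where a library's total exceeds what CPM can sum to, the deposited column was treated as a signal of the same making. Groups and replicate numbers came from the labels.

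The whole reads behind the values were worked out from the spacing of low values, and 3681 of 3681 values were whole within 0.05 read. Whether the unique molecular identifiers of the kit were counted is not given in the sources used here. MiRNAs listed in both groups were filtered with filterByExpr of edgeR 4.0.16 (minimum count 10, minimum total 15), scaled with TMM and tested with limma 3.58.1 with a mean-variance trend on log2(CPM + 5), with Benjamini-Hochberg adjustment over all tested miRNAs. Fold changes on this scale understate those of low miRNAs. Group levels were scaled over all 13 pools and can differ slightly from those behind a pairwise fold change. Alternatives were edgeR's quasi-likelihood test and DESeq2 1.42.0 on the recovered reads, and total reads or the deposited scaling in place of TMM. Further ones were other pseudocounts (1 and 20), no filter, a replicate block, the day of RNA measurement and all groups in 1 fit. Each pool was also left out in turn. The day was coded from the replicate number alone, as the first pool of each group against the others. It cannot be told apart from anything else that number shares. This covariate was fitted only between pairs of groups without the APCs.

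The members and lists were chosen with earlier results of these data known, and the miRNAs named are the members, the 3 most like their mean, the called members of the other immune list and the erythroid markers; called miRNAs of the other marker lists were named after their values were seen. Same-numbered pools of TCs at weeks 5 to 6 and heifers correlated in their deviations from group means (r = 0.189, 0.373 and 0.372). ANCs with APCs had r = 0.255. None of these values was tested as pairing, and no label says what a number shares.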

Additional observations from a re-analysis of the deposited data

How the results depend on the processing

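Of 161 counts of calls under an alternative, 138 stayed within 1.5 times the value reported. The 138 include every count of 0 that stayed at 0, in comparisons where no member was called. Of 845 single log2 fold changes, 748 kept their direction and their side of the thresholds, 20 lost a call, 49 gained one and 28 changed sign. The 5 calls in ANCs against heifers were made under all 10 alternatives other than leaving out a pool, and leaving out a pool gave 3 to 5. Those 10 alternatives called 15.4% to 29.8% of all miRNAs, against 19.1% in the main fit. APCs against heifers (0 calls) gave 2 with DESeq2, 5 with total reads, 2 with the deposited scaling and 1 with the replicate block, and 0 to 2 without a pool. Of all miRNAs, these 4 settings called 14.2%, 27%, 21% and 17.6% in turn, against 12.4% in the main fit. TCs at weeks 5 to 6 against heifers (2 calls) gave 4 with total reads, 0 with the day of RNA measurement and 3 each with edgeR, DESeq2, the deposited scaling and the replicate block, and 0 to 2 without a pool. TCs at weeks 9 to 10 against heifers (0 calls) gave 3 with DESeq2, and 1 each with total reads, the replicate block and all groups in 1 fit, and 0 to 5 without a pool. Leaving out a pool gave 0 to 4 in ANCs against APCs, 0 to 2 in ANCs against TCs at weeks 5 to 6, and 0 to 5 in all cow groups against heifers, where the replicate block gave 5. The replicate block changed no other count. In all cow groups against heifers, total reads, the deposited scaling and no filter gave 5 as well. Of all miRNAs, these called 10.9%, 9.72% and 7.63% in turn, against 7.29% in the main fit. Whether the numbers pair pools was not tested, and outside TCs at weeks 5 to 6 against heifers r ran from -0.156 to 0.255. Over all miRNAs, ANCs against heifers went from 41 calls to 64 with the block, APCs from 29 to 63 with total reads and 49 with the deposited scaling, and TCs at weeks 5 to 6 from 15 to 36 with DESeq2, 26 with total reads, 34 with the block, 4 with a pseudocount of 1 and 0 with the day. TCs at weeks 9 to 10 went from 0 to 14 with DESeq2, 6 with total reads, 5 in 1 fit, 3 with the block and 2 with the day, all cow groups against heifers from 18 to 32 with the block, and the call of bta-miR-451 among cows was lost with edgeR, the block or a pseudocount of 1. In each case the cause was not tested.

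The changes of sign were in comparisons where the member was not called. In APCs against TCs at weeks 5 to 6, bta-miR-146a was at 0.17 with edgeR and 0.29 with DESeq2. Between the TC times, bta-miR-150 was at 0.0586 with edgeR and 0.0435 with total reads, and bta-miR-223 at -0.0582 without the filter and -0.0358 with all groups in 1 fit. For negative minus positive energy, bta-miR-142-3p was at 0.0483 with total reads. Without a pool, APCs against heifers ranged from -1.18 to 0.0460 for bta-miR-142-5p and from -2.25 to 0.12 for bta-miR-146a, and ANCs against APCs from -2.15 to 0.21 for bta-miR-146a. APCs against TCs ranged from -0.87 to 0.38 for bta-miR-142-5p, -0.10 to 0.66 for bta-miR-150 and -1.32 to 1.06 for bta-miR-146a. The TC times ranged from -0.56 to 0.50 for bta-miR-223, -0.79 to 0.0449 for bta-miR-142-5p, -0.71 to 0.15 for bta-miR-150, -0.0938 to 0.71 for bta-miR-155 and -0.93 to 0.0610 for bta-miR-146a. Negative minus positive energy ranged from -0.60 to 0.47 for bta-miR-142-3p and -0.86 to 0.31 for bta-miR-146a. Where leaving out a pool left 1 in a group, that pool was assumed to vary like the others. At 2 to 13 reads per pool, bta-miR-142-3p did not pass the filter between pairs of groups when all their pools were kept. It passed in some fits without a pool, such as ANCs against heifers without the first ANC pool, and with all groups in 1 fit.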
